A study of Mus musculus with 6 samples.

Results

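Genes that endothelial cells are known for, namely Cdh5, Selp, Pecam1, Kdr, Flt1, Tek, Tie1, Emcn, Vwf and Eng, were followed across RNA-seq libraries of a mouse lung epithelial cell line. They are 10 of the 34745 genes in the deposited table and were picked by name because several of them had been seen to be high in a single library, replicate 2 of the NR4A1 overexpression group. The values of that library therefore chose the genes, and they are given below as a description with no test. MLE-12 is an immortalised mouse lung epithelial line, and RNA was taken from 3 samples transfected with a plasmid carrying the NR4A1 open reading frame in the pCMV-SPORT6 vector and from 3 samples transfected with the empty vector. NR4A1 is a nuclear receptor that acts as a transcription factor. All 6 libraries come from 1 cell line that carries its own Nr4a1 gene, and the labels do not say whether the samples of a group were separate cultures, so the p-values measure only the spread between these samples.

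Endothelial cells line blood and lymph vessels. They are held together by vascular endothelial cadherin (Cdh5) and PECAM-1, sense vascular endothelial growth factor through the receptors encoded by Kdr and Flt1 and angiopoietins through Tek, and carry Tie1 as a partner of Tek. Von Willebrand factor (Vwf) and P-selectin (Selp) are stored together in their secretory granules, endomucin (Emcn) coats the cell surface, and endoglin (Eng) is a co-receptor for proteins of the TGF-β and BMP family. Several of these genes are also known from other cells, Selp, Vwf and Pecam1 from platelets and their precursors, and Eng from stromal cells.

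Total counts lay between 15019038 and 17574340 per library, at which 3 counts, taken as the least a library can show, equal between 0.171 and 0.200 CPM, the count of a gene scaled by the library total. Nr4a1 had 50660 to 68555 counts per NR4A1 library and 428 to 510 per vector library, so each library matched its label. The first principal component, with 46.0% of the variance, scored NR4A1 replicate 2 at 57.4 and the other libraries between -20.8 and 2.20. Of the defining epithelial genes, Nkx2-1 had between 946 and 1445 counts, Sftpc between 1013 and 1389 and Cdh1 between 439 and 605, whereas Epcam had between 2 and 22 and the club cell gene Scgb1a1 had 0 in every library. Among 13375 genes that reached 1 CPM in some library, 277 (2.07%) were at or above 1 CPM in NR4A1 replicate 2 and at least 10-fold above every other library, where a library below 3 counts was set to 3 counts. The same rule found 5 genes (0.0374%) in vector replicate 1, 1 gene (0.00748%) in vector replicate 2 and 0 genes (0.00%) in the remaining 3 libraries.

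Before the values, short stretches of the members' promoters are shown, because endothelial genes are known as targets of ETS transcription factors, whose sites hold the letters GGAA. RefSeq promoter windows (GRCm38.p6, from 250 bases before to 50 after the start of the gene) matched 7 of the 10 genes. The letters AGGAAG, searched on both strands, occurred in the windows of Emcn, Eng, Flt1, Selp and Tie1 and, for comparison, in 35.4% of all 32851 windows. Kdr and Tek were the other matched genes. The match nearest to the start site is given for each of the 5 genes as 30 bases of the gene's strand, with the match in capitals (CTTCCT is the same match on the opposite strand).
Selp: tggaaagcgaatAGGAAGttgttttgttag
Eng: gccccttctctaAGGAAGcgcatttcctgc
Emcn: agtggctgccaaAGGAAGagagaggaaaaa
Flt1: aggtgccggggtAGGAAGtgggctggggaa
Tie1: accatcatttcctCTTCCTccccagcaccg
The windows lie at chr1:164115271-164115300 on the plus strand for Selp, at chr2:32646577-32646606 on the plus strand for Eng and at chr3:137340973-137341002 on the plus strand for Emcn. Those of Flt1 and Tie1 lie on the minus strand, at chr5:147726047-147726076 and chr4:118489800-118489829. The letters AAAGGTCA, which NR4A1 is known to bind as a monomer, occurred in 1 of the 7 matched windows, that of Emcn, and in 1.51% of all windows. There the match stood on the opposite strand, at chr3:137340914-137340943 (aaatcccatccTGACCTTTttgttgaagaa, match in capitals). These matches describe letters and not bound sites. Both motifs were chosen after values or sequences were seen, so nothing is read from their shares. A part of these factors in the levels was not tested.

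Of the 10 genes, 9 were higher in NR4A1 replicate 2 than in every other library, a position that 23.6% of the 13375 genes held, and 7 were at least 10-fold higher, against 2.07% of those genes. The share of genes with their highest level was 21.4% and 8.70% in NR4A1 replicates 1 and 3 and 10.6%, 24.1% and 11.6% in vector replicates 1, 2 and 3. The shares of replicate 2 belong to the library that chose the genes, so nothing is read from them. The 7 were Selp, Cdh5, Emcn, Tie1, Pecam1, Eng and Kdr. Vwf and Flt1 were higher by less, and Tek was not higher. The 10 genes together had 3037 counts in NR4A1 replicate 2 (179 CPM), and between 156 and 193 counts in the other libraries (between 9.41 and 11.1 CPM). Tek alone made up between 63.7% and 69.8% of that sum in the other 5 libraries and 2.93% of it in replicate 2.

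**Figure D1:**
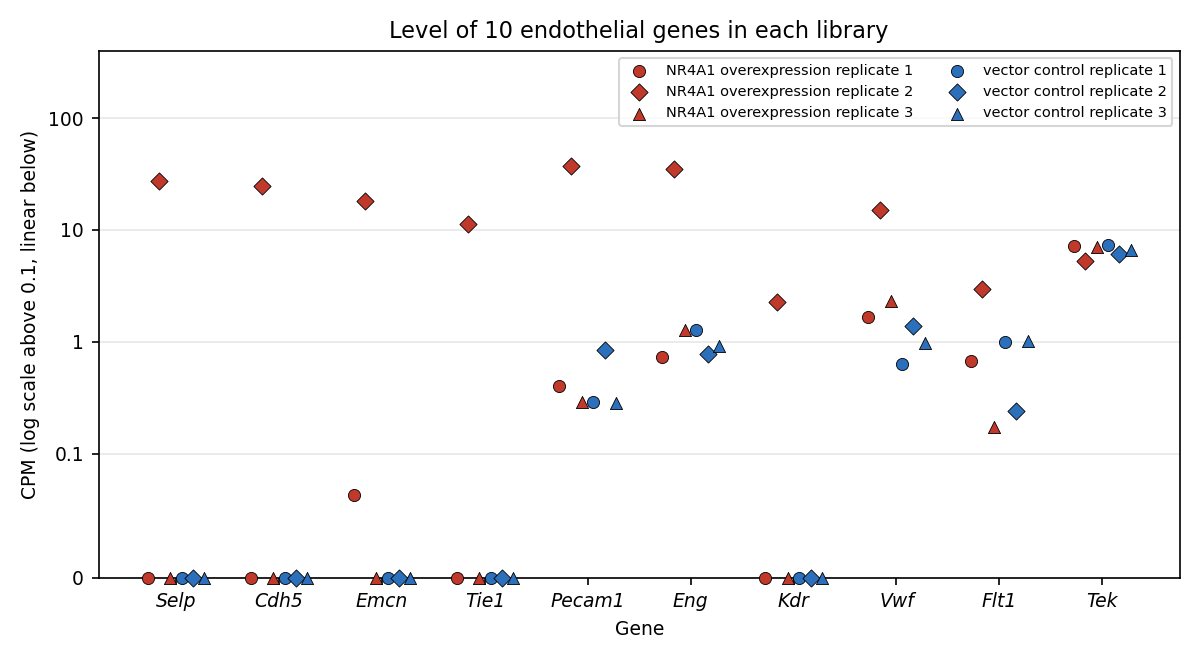
Level of the 10 genes in each of the 6 libraries, in CPM on an axis that is logarithmic above 0.1 and linear below, with NR4A1 overexpression libraries in red, vector controls in blue and the replicate number as the symbol. The red diamond (NR4A1 replicate 2) stands above all other points for 9 genes. With libraries below 3 counts set to 3 counts, the ratio to the next library runs from 137 for Selp down to 2.88 for Flt1, and the diamond and is the lowest point for Tek.

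The adhesion genes of cell junctions were among those with the largest difference. Cdh5 (ENSMUSG00000031871, chromosome 8 from 104101625 to 104144502 on GRCm38), the cadherin of endothelial adherens junctions, had 0, 419 and 0 counts in NR4A1 replicates 1, 2 and 3 and none in any vector library. The count of replicate 2 has a 95% Poisson interval from 380 to 461, and Cdh5 was at least 124-fold higher there than the limit of 3 counts allows in any other library. Pecam1 (ENSMUSG00000020717, chromosome 11 from 106654217 to 106750628), an immunoglobulin-family protein of endothelial cells, platelets and leukocytes, had 6, 633 and 5 counts with NR4A1 and 5, 14 and 5 with the vector. Pecam1 thus had a low signal in every library, and replicate 2 was 44.3-fold above the highest of them (95% interval of counting error from 26.2 to 81.4).

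The granule genes differed from each other. Selp (ENSMUSG00000026580, chromosome 1 from 164115264 to 164150026), which encodes the selectin that captures leukocytes on activated endothelium, had 0, 464 and 0 counts in the NR4A1 libraries and none in any vector library, which puts replicate 2 at least 137-fold above the limit. Vwf (ENSMUSG00000001930, chromosome 6 from 125546774 to 125686679), which encodes the large glycoprotein that tethers platelets, had 25, 254 and 40 counts with NR4A1 and 11, 23 and 17 with the vector. It was detected in all 6 libraries, and replicate 2 was 6.50-fold above the next library, NR4A1 replicate 3 (95% interval from 4.65 to 9.32). Vwf is the gene just outside the 10-fold limit and Kdr, at least 11.2-fold, the gene just inside it.

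The growth factor receptors showed the widest spread. Tie1 (ENSMUSG00000033191, chromosome 4 from 118471191 to 118490061), an orphan receptor kinase, was counted 192 times in replicate 2 and 0 times in each other library, at least 56.8-fold above the limit. Kdr (ENSMUSG00000062960, chromosome 5 from 75932827 to 75978458), the main signalling receptor for VEGF-A, was counted 38 times in replicate 2, with an interval from 26.9 to 52.2, and 0 times elsewhere. Flt1 (ENSMUSG00000029648, chromosome 5 from 147561604 to 147726011), a receptor that binds VEGF-A tightly and signals weakly, had 10, 50 and 3 counts with NR4A1 and 17, 4 and 18 with the vector. The 5 other libraries of Flt1 differed among themselves between 0.173 and 1.02 CPM, and replicate 2 was 2.88-fold above the highest (95% interval from 1.65 to 5.25).

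Tek (ENSMUSG00000006386, chromosome 4 from 94739289 to 94874976), the angiopoietin receptor also called Tie2, went the other way. It had 108, 89 and 123 counts with NR4A1 and 127, 102 and 116 with the vector, so that it was expressed in every library and replicate 2 had the lowest level, 5.26 CPM against 6.15 to 7.37 CPM elsewhere. The ratio of replicate 2 to the highest library was 0.713 (95% interval of counting error from 0.537 to 0.942). Among the 13375 genes, 20.6% were lowest in that library. The description of the genes as endothelial genes of a single library therefore does not cover Tek. For Flt1, Vwf, Eng and Pecam1, which every other library also held, it covers the excess only.

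The surface genes were both far higher in replicate 2. Emcn (ENSMUSG00000054690, chromosome 3 from 137341067 to 137432185), a sialomucin known best from veins and capillaries, was counted 304 times in replicate 2, 1 time in NR4A1 replicate 1 and 0 times in the other 4 libraries. With those libraries set to the limit of 3 counts the ratio was 89.9, and against the single count it was 270, with a counting interval from 48.0 to 10685. Eng (ENSMUSG00000026814, chromosome 2 from 32646595 to 32682669), the co-receptor endoglin, had 11, 594 and 22 counts with NR4A1 and 22, 13 and 16 with the vector, 27.5-fold above the highest of them (95% interval from 18.0 to 44.2). The other libraries of Eng overlapped between the groups.

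Levels of different genes were compared per length, as FPKM, within NR4A1 replicate 2. The order ran from Cdh5 at 6.21 FPKM through Eng at 4.80, Selp at 4.48, Pecam1 at 4.17, Emcn at 2.75, Tie1 at 1.88, Vwf at 0.756, Tek at 0.695 and Kdr at 0.233 to Flt1 at 0.205 FPKM. By exact binomial intervals of the ratio, which cover counting error only, Cdh5 stood above Eng by 1.29-fold (1.14 to 1.47), Pecam1 above Emcn by 1.52-fold (1.32 to 1.74), Emcn above Tie1 by 1.47-fold (1.22 to 1.77), Tie1 above Vwf by 2.48-fold (2.04 to 3.00) and Tek above Kdr by 2.99-fold (2.02 to 4.49). The neighbours Eng and Selp, Selp and Pecam1, Vwf and Tek, and Kdr and Flt1 did not differ beyond that error. The gene length used for each FPKM is not part of that error, so the order is a description of this library. Both VEGF receptors were thus at the low end, and the cadherin at the high end. In the other libraries Tek had the highest level per length of the 10 genes, between 0.814 and 0.976 FPKM, and no other member exceeded 0.175 FPKM.

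**Figure D2:**
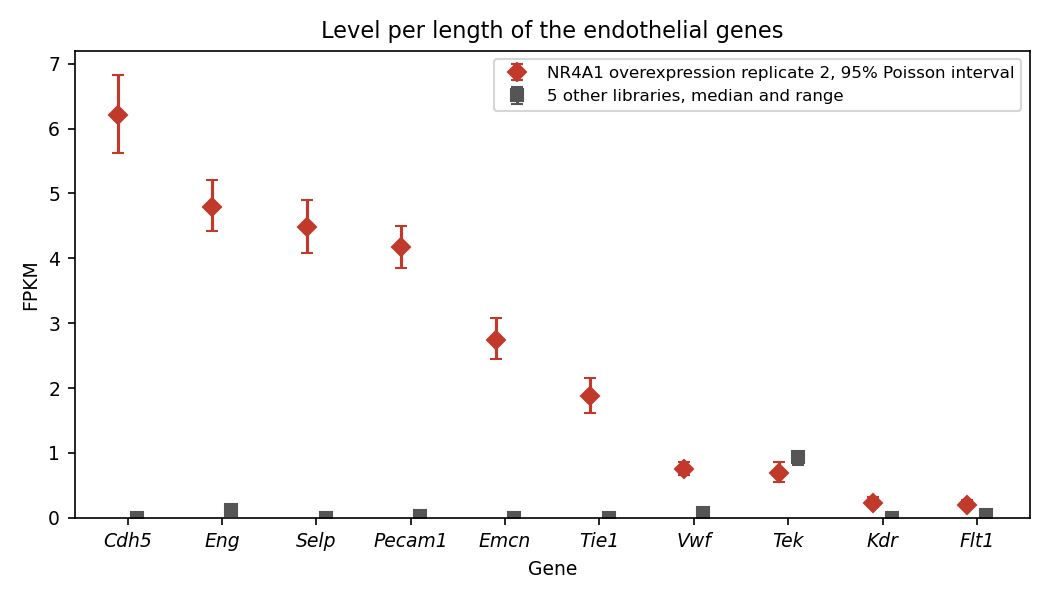
FPKM of the 10 genes in NR4A1 replicate 2 with the 95% Poisson interval of its count (red diamonds), and the median and range of the 5 other libraries (grey squares). Cdh5 is highest at 6.21 FPKM and Flt1 lowest at 0.205 FPKM in replicate 2, and Tek is the gene whose grey square lies above the red diamond.

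Sequence shared with other genes could let reads be counted on the wrong one. Of the 10 genes, 6 shared no stretch of 50 bases with annotated transcripts of another gene (GENCODE M21), and the largest share was 0.998% of the stretches, in Pecam1. Cdh5 overlaps 4249 bases of Gm29682 on the opposite strand, and Eng overlaps Gm26236, Gm47291 and Mir1954 on its own strand. The deposited counts hold no entry under the identifiers of these 4 genes, so reads over these overlaps could not be examined. Selp overlaps the antisense genes Gm16548 and Gm16587, both with 0 counts in all libraries, and Eng overlaps 61 bases of Fpgs, a folate enzyme gene on the opposite strand that every library expressed. Whether the counting used strand is not given in the sources used here.

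The question for which the samples were made, whether NR4A1 changes expression, can be put to these genes only in the libraries that did not choose them. With replicate 2 left out, 2 NR4A1 libraries were compared with 3 vector libraries by edgeR's quasi-likelihood test on 13084 genes. At a 2-fold change and an adjusted p of 0.05, 25 genes (0.191%) were called higher and 3 (0.0229%) lower, none of them a member. The 25 became 2 without NR4A1 replicate 3, 5 without NR4A1 replicate 1, 12 without vector replicate 3 and 43 without vector replicate 1. Only Tek, Vwf, Eng and Flt1 had enough counts to be tested. Of these 4, 0 were called and 1, Vwf, had an unadjusted p under 0.05, as had 1071 of all 13084 genes, and DESeq2 and limma-voom also called 0. Vwf was at 1.99 ± 0.454 CPM (SD, n = 2) against 0.998 ± 0.375 CPM (SD, n = 3). The edgeR quasi-likelihood test gave it a log2 fold change of 1.02, with 0.395 as standard error and an adjusted p of 0.605. Both NR4A1 libraries of Vwf were above all 3 vector libraries, as were those of 12.0% of the tested genes, while 15.8% of them had both NR4A1 libraries below all 3. In the other fits the adjusted p of Vwf ranged from 0.429 to 1.0. By that edgeR test Tek differed by a log2 fold change of 0.11 (SE 0.158, adjusted p = 0.821), Eng by 0.04 (SE 0.414, adjusted p = 0.978) and Flt1 by -0.85 (SE 0.778, adjusted p = 0.729), and their groups overlapped. Cdh5, Selp, Kdr and Tie1 had 0 counts in all 5 libraries, so a difference below 3 counts per library was not detectable at this depth. In bulk RNA, fewer cells of a kind and less RNA per cell cannot be told apart.

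With replicate 2 included, the group values of the members were set by it. Cdh5 averaged 8.25 ± 14.3 CPM, Selp 9.13 ± 15.8 CPM and Pecam1 12.7 ± 21.4 CPM in the NR4A1 group (SD, n = 3 each), every SD exceeding its mean. Of the 10 genes, 4 passed edgeR's filter on low counts in this fit, although Pecam1 with 633 counts in replicate 2 did not, since the filter asks for counts in at least as many libraries as a group holds. The fitted log2 fold change of the 6 libraries was 3.65 for Eng, 2.68 for Vwf, 0.77 for Flt1 and -0.02 for Tek. It is a description, because it holds the library that chose the genes, and for Flt1 its sign is opposite to the value without that library. Over all 12941 genes tested in the 6 libraries, 22 (0.170%) were called higher and 0 lower at the same thresholds by edgeR's quasi-likelihood test, and 836 had an unadjusted p under 0.05. DESeq2 called 71 higher and 2 lower. None of the 22 was a member, and the 71 included Vwf. Leaving out any 1 library other than replicate 2 lowered the 22 to between 3 and 6.

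The lists of other endothelial genes were written by gene function, but with earlier results of these data known. Values of NR4A1 replicate 2, the library that chose the members, are again a description, and nothing is read from its shares or medians. Other genes of the endothelial pathways, from these lists, were high in that library in part. Of 107 such genes in the table that are not members, 81 reached 1 CPM in some library, and 17 of these passed the 10-fold rule in NR4A1 replicate 2, against 2.07% of all genes. The median log2 ratio of replicate 2 to the highest other library was 0.37 over the 81 genes, 5.12 over the members and -0.17 over all 13375 genes. In the comparison without replicate 2, 56 of these genes were tested and 0 were called in either direction by edgeR's quasi-likelihood test, 7 had an unadjusted p under 0.05, as had 1071 of all 13084 genes, and DESeq2 and limma-voom also called 0.

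**Figure D3:**
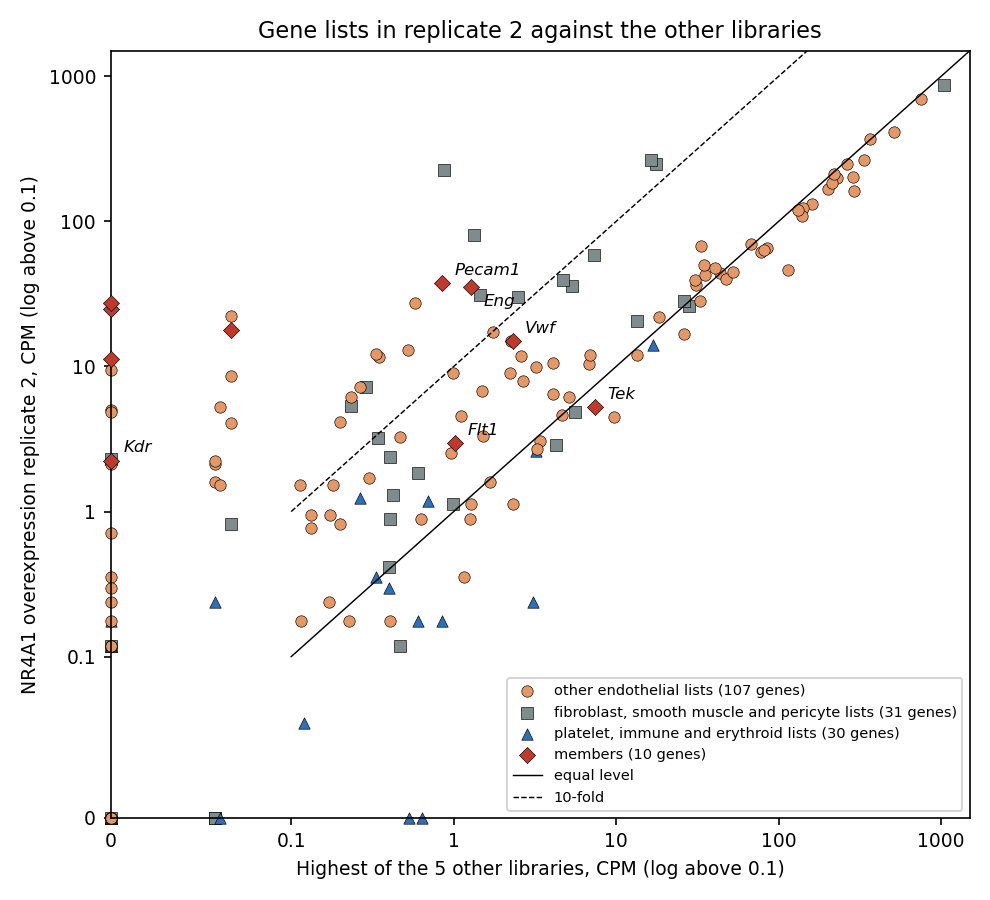
Each point is a gene of the endothelial, stromal (fibroblast, smooth muscle and pericyte) or blood (platelet, immune and erythroid) lists, with its CPM in NR4A1 replicate 2 on the y axis and the highest CPM of the 5 other libraries on the x axis, both logarithmic above 0.1 and linear below. Of the 10 members (red diamonds), 7 lie above the dashed 10-fold line when libraries below 3 counts are set to 3 counts, and Tek lies below the solid line of equal level.

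Among the ligands of the VEGF receptors, Vegfa, the main angiogenic factor, was expressed in all libraries with between 1872 and 2317 counts, and Vegfb with between 814 and 1351. Vegfc, the ligand of the lymphatic receptor, was counted 38 times in NR4A1 replicate 2, 1 time in vector replicate 1 and 0 times elsewhere. Flt4, which encodes that receptor, was counted 11, 77 and 12 times against 19, 14 and 18 times. The co-receptors Nrp1 and Nrp2 were abundant in every library, with between 2972 and 3769 and between 1994 and 2733 counts, and replicate 2 was not the highest for either. The high and the even genes of this pathway are thus mixed.

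Of the ligands of Tek, Angpt2, the angiopoietin of endothelial cells, was counted 3, 55 and 4 times in the NR4A1 libraries and 8, 0 and 0 times in the vector libraries. Angpt1, the activating ligand made by perivascular cells, was counted 16, 27 and 29 times against 5, 11 and 3 times. Without replicate 2 edgeR's quasi-likelihood test put the difference at 1.89 on the log2 scale (SE 0.554, adjusted p = 0.452), so it did not pass the threshold. Ptprb, the phosphatase that acts on Tek, was counted between 402 and 803 times and was highest in replicate 2 by 1.17-fold.

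In the endoglin pathway, Acvrl1, the endothelial receptor with which endoglin works, was counted 1, 198 and 0 times in the NR4A1 libraries and 6, 0 and 0 times in the vector libraries, 33.6-fold above the highest (95% interval from 15.2 to 92.6). The ligands Gdf2 and Bmp10 had 0 counts in every library. Bmpr2, Smad1 and Smad5 were expressed throughout and were not highest in replicate 2. Id3, a common target of BMP signalling, was counted 1153 times in replicate 2 and between 416 and 577 times elsewhere, 2.03-fold above the highest other library.

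Of the genes for leukocyte adhesion and the vessel surface, Sele, the E-selectin of activated endothelium, was counted 36 times in replicate 2 and 0 times elsewhere. Cd34, a sialomucin of endothelial and stromal cells, was counted 221 times there, 9 times in vector replicate 1 and 0 times in the others. Vcam1 and Podxl were abundant in all libraries, with between 2883 and 3769 and between 6988 and 9003 counts. Thbd, the thrombin receptor thrombomodulin, was counted 8, 291 and 0 times against 30, 0 and 0 times, which is 9.87-fold above vector replicate 1 and thus short of 10-fold.

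The transcription factors of endothelial identity were also counted in replicate 2, at low levels. Erg, an ETS factor, had 85 counts there and 0 in each other library, Fli1 had 36 counts there and at most 1 elsewhere, and Foxc2 had 105 there and at most 4 elsewhere. These 3 of the 13 listed factors that reached 1 CPM passed the 10-fold rule. Sox7, Sox17 and Sox18 had 26, 5 and 16 counts in replicate 2 and at most 1, 0 and 3 elsewhere. Etv2, which starts endothelial development in the embryo, had 0 counts in every library. Klf4, Mef2c and Nr2f2 were expressed in all libraries and not highest in replicate 2.

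A list of 24 pan-endothelial markers shares Erg, Sox18, Cldn5, Esam, Icam2 and Ptprb with the lists above. Of the 24, 20 reached 1 CPM and 9 passed the 10-fold rule, namely Mmrn2, Esm1, Calcrl, Cd93, Ecscr, Shank3, Clec14a, S1pr1 and again Erg. Mmrn2, a matrix protein of vessels, was counted 159 times in replicate 2 and 0 times elsewhere, and Esm1, a secreted product of sprouting endothelium, 377 times and at most 1 time elsewhere. Calcrl, the receptor subunit for adrenomedullin, was counted 3, 463 and 0 times against 10, 5 and 3 times. Other defining markers were nearly absent from the same library. Cldn5, the claudin of endothelial tight junctions, had 3 counts there, Robo4 had 6, and Gpihbp1, the lipase anchor of capillaries, had 0.

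The subtype lists gave no single answer. Of the lung capillary markers 0 of 4 that reached 1 CPM passed the rule, with Car4 at 2 counts and Ednrb at 4 in replicate 2. Their list summed to 24.2 CPM there against 8.46 to 12.7 CPM elsewhere. Plvap and Apln were highest in replicate 2, by 2.56-fold and 1.52-fold, whereas Aplnr and Tbx2 were not. Of the arterial markers 1 of 5 passed, the connexin gene Gja5, with 82 counts there and 0 elsewhere. Of the venous markers 0 of 2 passed, and Ackr1 had 2 counts. Of the lymphatic markers 1 of 3 passed, the hyaluronan receptor gene Lyve1 with 122 counts against at most 4, while the lymphatic regulator Prox1 had 3 counts and Reln had 0.

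Among the 861 genes with a count in NR4A1 replicate 2 and 0 counts in all 5 other libraries, the 8 with the highest CPM there were taken as most like the members. They were the members Selp, Cdh5 and Tie1, followed by Mmrn2 at 9.39 CPM, Slc1a6 at 6.50, Car8 at 6.32, Tfpi2 at 5.79 and Sntg1 at 5.14 CPM. Mmrn2 is on the pan-endothelial list above, and Tfpi2 and Sntg1 are on none of the lists. Slc1a6, a glutamate transporter of the brain, and Car8, a carbonic anhydrase-related protein, are not known as endothelial genes.

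Markers of other cell types moved in the same library. Of the smooth muscle markers 4 of 10 that reached 1 CPM passed the 10-fold rule, namely Acta2, Tagln, Actg2 and Lmod1. Tagln had 1375 counts in NR4A1 replicate 2 and at most 23 elsewhere. Actg2 had 39 there and 0 elsewhere, and Lmod1 had 90 there and at most 4 elsewhere. The list summed to 358 CPM in NR4A1 replicate 2 against 24.2 to 34.3 CPM in the others. Of the fibroblast markers 4 of 10 passed, with a sum of 1571 CPM against 951 to 1081 CPM. Most of that sum in every library was Dcn, which encodes a matrix proteoglycan and had between 14138 and 17269 counts. Dcn was lowest in replicate 2, at 871 CPM against 909 to 1042 CPM elsewhere. The list sum thus shows little of the difference in the genes that passed. Of the pericyte markers 1 of 3 passed, Cspg4, with 123 counts against at most 5. The pericyte list summed to 68.4 CPM against 6.94 to 15.0 CPM. Pdgfrb, with 669 counts against at most 81, and Notch3, with 350 against at most 226, were also highest in replicate 2. Kcnj8 and Higd1b were at 0 in replicate 2 and at most 1 count elsewhere. The platelet list, which bears on Selp and Vwf, had 0 of 2 genes past the rule and a sum of 14.7 CPM against 12.1 to 18.0 CPM. Most of that sum was 1 gene, Itga2b, with 237 of the 249 counts in replicate 2 and between 173 and 281 counts elsewhere. Ppbp, Gp9 and Gp6 had 0 counts in every library. The immune list had 0 of 3 past the rule and a sum of 5.85 CPM against 2.13 to 3.74 CPM. Ptprc, the common leukocyte antigen, had 0 counts in replicate 2 and at most 1 elsewhere. Csf1r, with 21 counts against at most 4, and Lyz2, with 20 against at most 12, were highest in replicate 2. Cd68, with 44 counts there and at most 53 elsewhere, was not. Erythroid genes summed to 0.413 CPM against 0.200 to 0.980 CPM, mesothelial genes to 202 CPM against 179 to 245 CPM, and epithelial genes to 974 CPM against 835 to 1113 CPM. The part of these other cell types in the values of the members was not tested.

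A second library, vector replicate 1, was often the next highest for stromal genes and held none of the counts of Cdh5, Selp, Kdr, Tie1 and Emcn. The sum of all 10 members there was 10.6 CPM, within the range of the libraries other than NR4A1 replicate 2, and Flt1 stood at 0.987 CPM and Tek at 7.37 CPM. Of the 277 genes past the 10-fold rule in NR4A1 replicate 2, 240 had counts in another library, and in 157 of these vector replicate 1 was the next highest. Among the 9 fibroblast, smooth muscle and pericyte genes past the rule it was next in 7 of the 8 with counts. Among the 7 members past it, 4 had 0 counts in all other libraries and vector replicate 1 was next for 1, Eng. There it was nearly level with NR4A1 replicate 3, at 1.277 against 1.269 CPM. Of the 17 other endothelial list genes past the rule, 13 had counts elsewhere. Vector replicate 1 was next for 5 of these and NR4A1 replicate 1 for 6. The following genes were chosen after their values were seen. Col1a1, Col1a2, Col3a1, Pdgfra, Pdgfrb, Postn and Thy1 reached between 4.68% and 14.8% of their replicate 2 level in vector replicate 1, and at most 3.64% in the other libraries. Col1a2, a chain of type I collagen, was counted 45, 4504 and 12 times in the NR4A1 libraries and 284, 14 and 10 times in the vector libraries. Cdh5, Selp, Kdr, Tie1 and Emcn were summed as the members with at most 1 count in every other library. Together they had 1417 counts in replicate 2 and 0 in vector replicate 1, where 3 counts would have been 0.208% of that level. A value near 0 there was fixed by that choice, so nothing is read from it. Of the members left out of the sum, Eng had 22 counts in vector replicate 1, Pecam1 5, Vwf 11, Flt1 17 and Tek 127. Eng and Pecam1 stood there at 3.64% and 0.777% of their replicate 2 level. The genes did not divide by cell type list. Acta2, the actin of smooth muscle, had 3841 counts in replicate 2 and 15 in each of vector replicates 1 and 3, whereas the endothelial list genes Thbd, Tfpi and Cxcl12 stood at 10.1%, 10.9% and 22.2% of their replicate 2 level in vector replicate 1. With 1 library of each kind, this has no replicate check.

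**Figure D4:**
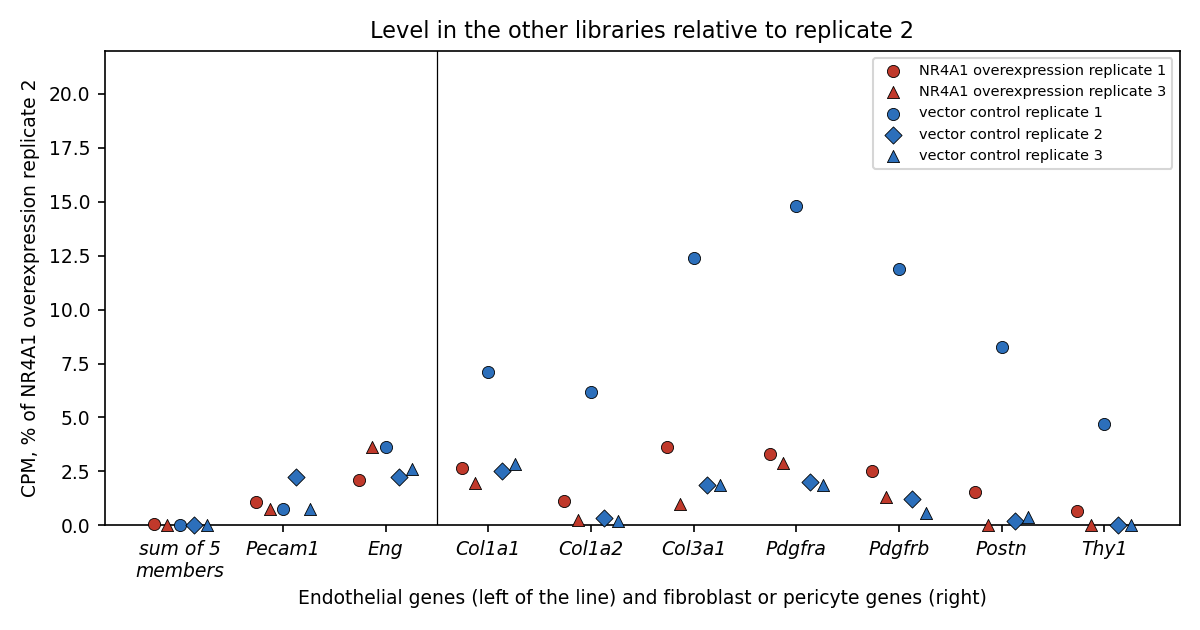
CPM in each of the 5 other libraries as a percentage of the CPM in NR4A1 replicate 2. Left of the line are the sum of Cdh5, Selp, Kdr, Tie1 and Emcn, and Pecam1 and Eng. Right of it are 7 fibroblast or pericyte genes. Vector replicate 1 (blue circles) lies highest for each gene on the right, up to 14.8% for Pdgfra, and at 0 for the sum of the 5 endothelial genes. Those 5 were summed for having at most 1 count in every other library, so a value near 0 was fixed by that choice.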

How the data were processed

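RNA of 6 MLE-12 samples, 3 in each group as the labels give them, was sequenced by the authors. The labels describe an mRNA isolation step, whereas the methods name a stranded total RNA kit. The submitters' processing notes name HISAT2 2.0.4 and GRCm38.p4. The counting program and the time after transfection are not given in the sources used here. The authors deposited 1 table that holds, for each gene, a read count and the FPKM of every library. The deposited FPKM is the count scaled by the library total and a fixed gene length, within 5.35e-06% for the median of 10738 genes.

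Counts were tested with edgeR 4.0.16 in R 4.3.3 (TMM factors, filterByExpr, quasi-likelihood test), on 6 libraries and on the 5 without NR4A1 replicate 2. P-values were adjusted by Benjamini-Hochberg over all tested genes, with thresholds of 0.05 and 2-fold, and standard errors come from the fold change and F. CPM are relative to library totals. Poisson and exact binomial intervals (95%) and the limit of 3 counts cover counting error only. Coordinates are those of the table, and 9 of the 10 members have the same ones in GENCODE M21. On simulated counts with 200 genes changed 3-fold, the test recovered 167 with 10 false calls for 6 libraries (12941 genes) and 170 with 9 false calls for 5 (13084 genes). The simulated libraries of a group shared a common mean per gene, and none stood apart as NR4A1 replicate 2 did. These figures therefore do not describe the test in the presence of such a library.

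The members and lists were chosen with earlier results of these data known. Genes named by rule were all members, Nr4a1, list genes past the 10-fold rule, defining genes that were absent, list genes abundant in the vector controls, and the 8 genes most like the members. Other list genes, the 7 stromal genes set against vector replicate 1 and the promoter motifs were chosen after values or sequences were seen. The 5 members summed beside those stromal genes were chosen by their counts in the other libraries. Alternatives were other size factors, other count filters, DESeq2 1.42.0, limma-voom (limma 3.58.1), limma on log2(FPKM + 1), a replicate block, leaving out single libraries, other fold limits and a limit of 1 count.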

Additional observations from a re-analysis of the deposited data

How the results depend on the processing

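The number of members at least 10-fold higher in NR4A1 replicate 2 was 7, and it was 7 with TMM or median-ratio library sizes and with no minimum level, 6 with FPKM of at least 1 or a 20-fold limit, and 8 with a 5-fold limit. The summed level of the members was 26.2 as FPKM, another unit than CPM. Over the 6 libraries, genes called higher numbered 22, but 8 with a mean of 10 counts, 71 with DESeq2 and 7 with limma on FPKM, and those called lower 0, but 2 with DESeq2. Over the 5 libraries without NR4A1 replicate 2, 25 were called higher, but 46 with no filter, 63 with DESeq2 and 11 with limma on FPKM, and 3 lower, but 0 with limma on FPKM. With each library left out in turn, the calls ranged from 3 (without NR4A1 replicate 1 or 3) to 25 higher (without NR4A1 replicate 2) and 0 to 3 lower for the 6 libraries, and from 2 (without NR4A1 replicate 3) to 43 higher (without vector replicate 1) and 1 to 5 lower for the 5. No member was called in any fit of the 5 libraries, and limma on FPKM tested 0 of them. The cause of these changes was not tested. In the 6 libraries, 10 members were tested with no filter and 9 with a mean of 10 counts.

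Same-numbered libraries deviated together with correlations of -0.01, -0.05 and 0.25 for replicates 1, 2 and 3, so the numbers were not taken as pairs. With the replicate block, 5 genes were called higher and 0 lower over the 6 libraries, and 14 higher and 3 lower over the 5. With a limit of 1 count, the log2 ratios of Cdh5, Selp, Kdr, Tie1 and Emcn rose to 8.54, 8.68, 5.07, 7.41 and 8.07. Depth limits what can be said of the members at 0 to differences above 3 counts per library.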

Other observations

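Some genes of the same lists stood out in other libraries. Ramp2, a subunit of the adrenomedullin receptor, had 37, 76 and 168 counts with NR4A1 and 57, 52 and 32 with the vector, so that NR4A1 replicate 3 was the highest. The platelet glycoprotein gene Gp1bb was counted 53 times in NR4A1 replicate 3 and 29 times in vector replicate 1, and between 3 and 5 times in the other 4 libraries. Cd99l2, an adhesion gene of leukocyte passage through vessel walls, was counted 783 times in NR4A1 replicate 2 and between 1496 and 1995 times elsewhere, the opposite direction to most members. Among the epithelial genes, Krt18, an epithelial keratin, was counted 164 times in NR4A1 replicate 2 and between 2 and 21 times elsewhere, whereas its usual partner Krt8 was counted between 2767 and 3835 times in every library. These genes were chosen after their values were seen.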
